A study of Rattus norvegicus with 35 samples.

Results

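Among 11 normal rat mammary glands, 3 had a high signal of lymphocyte genes and 8 a low one. The glands were divided by the array signal of Cd79b, a signalling subunit of the B cell antigen receptor. The 3 lymphocyte-rich glands, titled NewN4, NewN6 and X27.1N, had a Cd79b signal of 400 or more, and the 8 lymphocyte-poor glands, titled NewN1, NewN2, NewN3, NewN5, NewN7, NewN8, X28.1N and Young, had less. Just inside the threshold lay NewN4 at 809, and just outside it lay NewN3 at 42.9. The series holds 35 arrays in all: these 11 normal glands and 24 frozen tumours of a model in which the carcinogen N-methyl-N-nitrosourea (NMU) induces mammary tumours. Total RNA of each tissue was measured on an RAE230A oligonucleotide array, on which several short probes, together called a probe set, read each gene and their summarised brightness is its signal. Beyond these titles the labels give no strain, age, treatment, animal, pairing or batch for the normal glands, so none of these can be told apart from the division by lymphocyte signal. What the title Young stands for is not stated. X27.1N and X28.1N share numbers with tumours titled X27 and X28, and whether they share an animal is not stated, nor whether each gland came from its own animal.

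A mammary gland is a tree of epithelial ducts in a pad of fat, with connective tissue, vessels and some immune cells. In rodents lymph nodes lie embedded in that fat. A node holds follicles of B cells, zones of T cells, and high endothelial venules, the vessels through which lymphocytes enter from blood. Lymphocytes read antigen through a B cell or T cell receptor, whose signal is carried by subunits such as Cd79b and the Cd3 chains and by kinases such as Lck. The labels do not say whether a node was in any piece of tissue, and its part in the results was not tested.

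Many genes of lymphocytes are known to be controlled through motifs bound by ETS family factors, a group that includes Ets1 and PU.1. The promoters of 4 genes described below are shown because each holds the 7 letters AGGAAGT, an ETS-type motif, or its reverse complement. Each is the 250 bases before the gene's start in the RefSeq annotation of GRCr8, 5′ to 3′ on the gene's strand, with the motif in capitals.
Lck, chr5:147201268-147201517, minus strand: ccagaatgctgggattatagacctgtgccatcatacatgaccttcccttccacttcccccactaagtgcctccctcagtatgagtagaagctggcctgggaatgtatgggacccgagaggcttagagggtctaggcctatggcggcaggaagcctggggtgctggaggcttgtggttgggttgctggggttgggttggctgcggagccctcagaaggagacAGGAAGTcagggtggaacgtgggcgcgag
Cd37, chr1:104860785-104861034, minus strand: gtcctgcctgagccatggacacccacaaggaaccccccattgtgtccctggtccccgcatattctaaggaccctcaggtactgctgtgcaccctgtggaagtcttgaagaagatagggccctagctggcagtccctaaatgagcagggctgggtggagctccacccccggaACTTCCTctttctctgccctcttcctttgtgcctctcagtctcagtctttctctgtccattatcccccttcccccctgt
Tcf7, chr10:36954280-36954529, minus strand: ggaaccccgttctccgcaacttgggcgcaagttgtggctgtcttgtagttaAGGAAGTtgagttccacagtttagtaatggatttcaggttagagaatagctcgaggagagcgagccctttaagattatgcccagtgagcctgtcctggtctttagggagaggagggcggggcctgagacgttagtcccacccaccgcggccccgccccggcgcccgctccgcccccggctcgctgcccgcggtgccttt
Ptprc, chr13:52259747-52259996, minus strand: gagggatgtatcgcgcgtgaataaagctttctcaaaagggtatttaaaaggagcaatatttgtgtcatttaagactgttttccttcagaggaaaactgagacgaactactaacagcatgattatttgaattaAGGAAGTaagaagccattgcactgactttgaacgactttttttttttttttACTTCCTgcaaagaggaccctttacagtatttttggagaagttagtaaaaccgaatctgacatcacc
The motif began 29 bases before the start of Lck, 79 before that of Cd37 (as its reverse complement) and 199 before that of Tcf7. In Ptprc it stood once in each orientation, at 118 and 67 bases before the start. The promoter of Glycam1, the gene with the largest difference described below, lay at chr7:136561300-136561549 on the minus strand and is shown as a case without either form of the motif.
Glycam1: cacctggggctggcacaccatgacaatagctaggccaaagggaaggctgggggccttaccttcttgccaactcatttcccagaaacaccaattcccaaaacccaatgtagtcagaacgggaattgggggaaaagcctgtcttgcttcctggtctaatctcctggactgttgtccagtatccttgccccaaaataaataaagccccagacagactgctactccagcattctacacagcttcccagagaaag

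Searched on both strands, AGGAAGT was in the window of 1918 of 27457 promoters of all genes (6.99%) and of 632 of 8630 promoters of the genes measured here (7.32%). Among genes at least 2-fold higher in the lymphocyte-rich glands, called by the rule given below and with no overlap between the 2 sets of glands, 189 in number, 142 had a promoter entry. Of these 142, 36 held the motif (25.4%). Among those 142 the genes outside the B cell, T cell and pan-leukocyte lists numbered 113, and 23 of them held it (20.4%). Of 248 promoters of genes at least 1.5-fold lower, 17 held it (6.85%). The octamer ATGCAAAT, known from immunoglobulin promoters, was in 112 of the 8630 promoters of measured genes (1.30%) and in 3 of the 142 (2.11%). Of the 15 genes with the largest rises, 11 had an entry and 3 of them (Tcf7, Lck and Cd37) held AGGAAGT; the other 8 were Cd3d, Cd3g, Coro1a, Il2rg, Ubd, Lef1, Cd8a and Glycam1. These shares describe letters in a window and were not tested. Cd79b, Ptprcap, Ighl2 and Rac2 had no entry.

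Signals under 41.6, the 10th percentile of all values, were set to that floor before log2 was taken, so a difference of 1 on the log2 scale is 2-fold. A gene was called when limma gave a Benjamini-Hochberg adjusted p under 0.05 over all probe sets. Because the glands were chosen by a value of the same arrays, the calls sort genes by size and spread, and no p-value is given for a gene between the 2 sets of glands. Of 10411 genes, 734 were called higher in the lymphocyte-rich glands (7.05%) and 788 lower (7.57%). The signals of the 2 sets did not overlap for 793 genes that were higher (7.62%) and 701 that were lower (6.73%). The larger differences were mostly upward: a difference of 2-fold or more was found for 190 of the genes called higher and 73 of those called lower, and one of 4-fold or more for 41 and 1. NewN6 carried much of the count. Without it 330 genes were called higher and 267 lower, and without X27.1N 515 and 358. With the title family (NewN or other) as a covariate the counts were 1153 and 1241.

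The arrays of the 2 sets were alike in their overall signal. The median signal was 169 ± 2.20 (SD, n = 3) in the rich and 167 ± 2.82 (SD, n = 8) in the poor glands (exact permutation p = 0.473, two-sided), and the 10th and 90th percentiles also did not pass (exact p = 0.715 and 0.364). The Actb control is read near both ends of its RNA, and its 3′ signal divided by its 5′ signal, which is larger where RNA is degraded, was 1.21 ± 0.071 in the rich and 1.40 ± 0.069 in the poor glands. All 3 rich glands lay below all 8 poor ones, with an exact p of 0.0121, the smallest that 3 against 8 can give, and an adjusted exact p of 0.0606 over the 5 array measures. The Gapdh ratio was 1.04 ± 0.070 and 1.17 ± 0.128 (exact p = 0.109). The difference in the Actb ratio ran beside every gene list below, and the part of RNA quality in the results was not tested.

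Cd79b, by which the glands were divided, had signals of 809, 1111 and 1013 in the rich glands NewN4, NewN6 and X27.1N, and from 8.05 to 42.9, median 16.4, in the poor glands. It was at the floor in 7 of the 8. Cd3d, a chain of the T cell receptor complex, was at 590, 1196 and 718 in NewN4, NewN6 and X27.1N. It was at the floor in all 8 poor glands (4.37 to 36.0, median 19.4), which puts it at least 19.2-fold higher in the rich ones. Cd37, a tetraspanin of leukocytes with high levels on B cells, read 731, 1299 and 690 against 73.6 to 137 (median 114). Ptprcap, a protein bound to the leukocyte phosphatase Ptprc, read 1088, 1926 and 1260 against 54.2 to 89.5 (median 70.0). Lck, the kinase that starts T cell receptor signalling, read 1167, 2039 and 1202 against 151 to 239 (median 167). None of these other 4 overlapped between the 2 sets. They were read on the same arrays as Cd79b and chosen with earlier results of these data known. Their separation is therefore no independent check of the label lymphocyte-rich. In 4 of the 5, all except Cd79b, NewN6 stood well above both other rich glands, whereas for Cd79b the 3 were closer together.

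**Figure D1:**
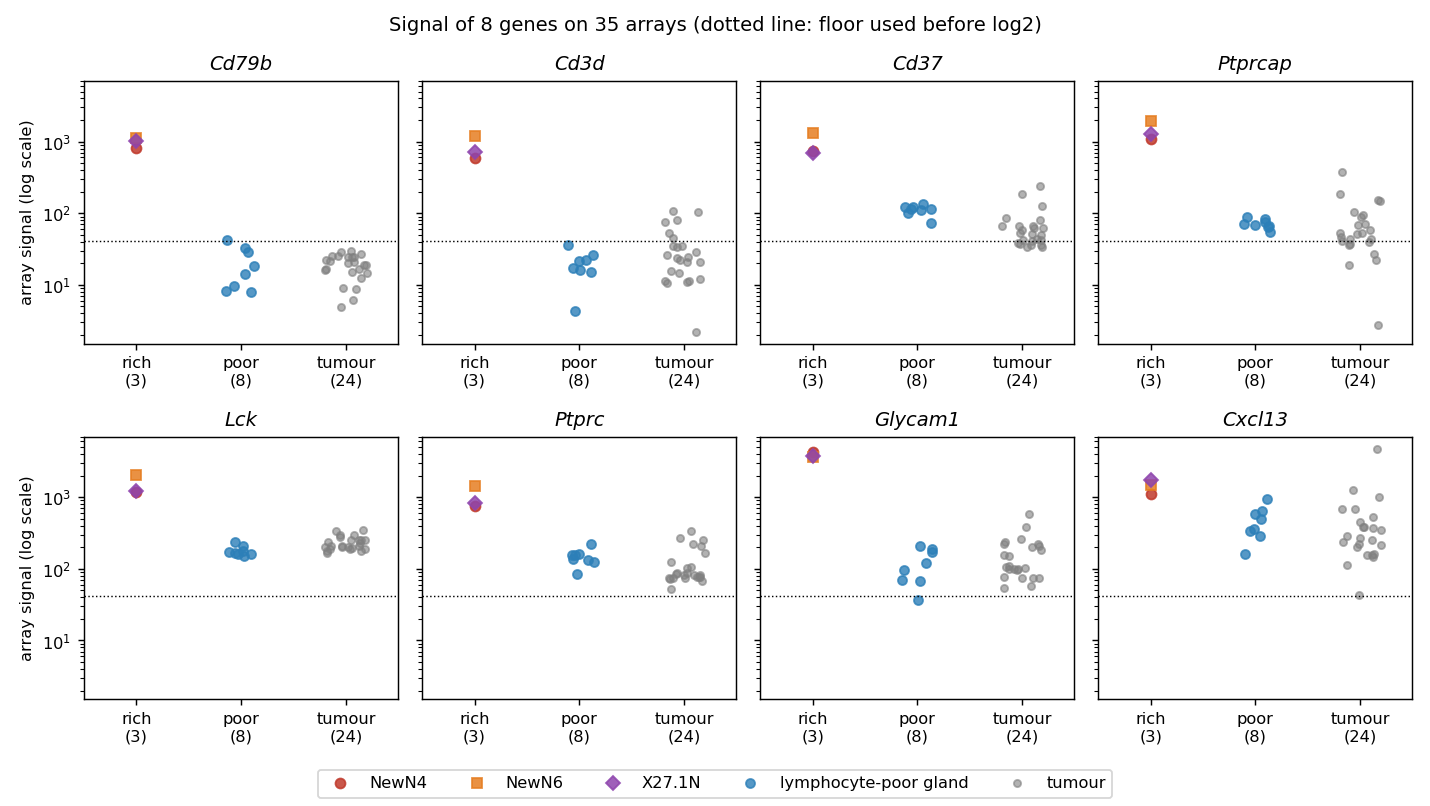
Array signal (log axis) of the 5 markers, Ptprc, Glycam1 and Cxcl13 in the 3 lymphocyte-rich glands, the 8 lymphocyte-poor glands and the 24 tumours; each point is 1 array and the dotted line is the floor of 41.6. For Lck the rich glands sit between 1167 and 2039 and every poor gland is at or below 239; no tumour reached the rich glands for any of the 5 markers.

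The largest difference among all genes that were called without overlap was that of Glycam1, an adhesion mucin made by high endothelial venules and also secreted in milk. Its signals were 4261, 3649 and 3764 in NewN4, NewN6 and X27.1N, and 37.2 to 207 (median 107) in the poor glands, a difference of 5.21 (SE 0.47). That rank holds with the main settings only. Ighl2, an immunoglobulin heavy chain gene, differed by 5.09, and passed Glycam1 with the NewN glands alone (5.62 against 5.27). Ighl2 also passed it with array weights (5.43 against 5.18) and without X27.1N (5.49 against 5.23). The floor used limits genes such as Cd79b, Cd3d and Lef1. With the floor at the 5th percentile the differences were 5.23 for Glycam1, 5.07 for Cd79b and 4.87 for Cd3d. Glycam1 was the only gene among the first 8 that was highest in NewN4 rather than NewN6. The 8 other measured genes of the milk protein list were not called. NewN4 alone had high milk protein signals in that set: Wap (whey acidic protein) read 1108 in NewN4 and the lowest deposited value of 1 in NewN6 and X27.1N, and Csn2 (beta-casein) read 2280, 38.6 and 41.7, while Glycam1 was high in all 3. The poor glands reached 244 for Wap and 502 for Csn2. Other genes of venules and node stroma differed less. Vcam1, an adhesion molecule of endothelium and stroma, read 410, 964 and 603 against 158 to 297, a difference of 1.48 (SE 0.27). Madcam1, the adhesion molecule of mucosal venules, read 97.6, 93.7 and 105 against 95.1 to 136 and was not called. Sele (E-selectin, made by inflamed endothelium) was at the floor in all 3 rich glands and above it in all 8 poor ones (54.8 to 133), although it was not called. In the list of lymph node stroma and vessels, 2 of 15 measured genes were higher, Glycam1 and Vcam1 (13.3%, beside 7.05% over all genes). Lower was 1, Pdpn, podoplanin of lymphatic vessels and stroma (6.67%, beside 7.57%). The median difference was 0.22 beside -0.01 over all genes.

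Genes of the T cell receptor and its signalling were higher together. Of 23 measured genes in the T cell list, 15 were called higher (65.2%, beside 7.05% over all genes) and 0 lower. The median difference was 1.25. Cd3g, another chain of the receptor complex, read 894, 1639 and 1077 against 51.8 to 75.8, a difference of 4.19 (SE 0.18). Cd3e, a further chain, differed by 2.30 (SE 0.21), Cd247, its zeta chain, by 1.93 (SE 0.18), and Cd5, a receptor that damps the signal, by 2.63 (SE 0.27). Cd8a, the coreceptor of cytotoxic T cells, read 234, 502 and 263 against values under the floor in all 8 poor glands, a difference of at least 7.54-fold. Cd4, the coreceptor of helper T cells, which rat macrophages also make, read 432, 534 and 315 against 202 to 381, overlapped and was not called. Thy1, which fibroblasts and nerves also make, was not called either, at 321, 215 and 363 against 208 to 633.

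Tcf7 and Lef1 encode the related transcription factors TCF1 and LEF1. Tcf7 read 695, 1405 and 659 against 45.8 to 83.5, a difference of 3.72 (SE 0.23). Lef1 read 290, 614 and 248 and was at 1 to 2.96 in the poor glands, all under the floor, so it was at least 8.49-fold higher. Unlike the markers it was not low in tumours, where its median was 160 and 7 of 24 reached the lowest rich gland. Il7r, the receptor for the survival cytokine IL-7, read 78.3, 153 and 60.0 against values again under the floor in all 8 poor glands, a difference of at least 2.15-fold. Among 16 measured genes of natural killer and cytotoxic cells 3 were higher (18.8%, beside 7.05% over all genes). These were Gzmm, a granzyme, by 1.56 (SE 0.26), and the receptors Klrd1 and Klrk1 by 1.37 (SE 0.23) and 1.30 (SE 0.22).

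The array measured 7 of the 31 genes in the B cell list, and 5 were higher (71.4%, beside 7.05% over all genes). Besides Cd79b these were Cd40, a receptor for T cell help (difference 1.21, SE 0.25), Iglc1, an immunoglobulin light chain constant region (1.06, SE 0.16), Cxcr5, the chemokine receptor that brings B cells to follicles (0.79, SE 0.15), and Pou2f2, an octamer-binding factor (0.64, SE 0.18). Ebf1 alone was lower (14.3%, beside 7.57% over all genes), at 175, 181 and 158 against 239 to 361. It is a B cell factor that adipocytes also express, so the member that was lower is not specific to B cells. Without NewN6 2 of the 7 were called higher, and with the NewN glands alone 3. Ighl2, an immunoglobulin heavy chain gene outside the list, read 2031, 4045 and 1250 against 40.9 to 97.3, a difference of 5.09 (SE 0.35). It belongs to a family of near-identical segments, so which segment was read is uncertain. Of 5 plasma cell genes, Ssr4 was higher by 0.48 (SE 0.12) and Xbp1 lower by 0.30 (SE 0.07); both are secretory pathway genes of other cells too. The call of Ssr4 was lost without NewN4 or NewN6, and that of Xbp1 without NewN6 or X27.1N. The call of Xbp1 was also lost under quantile normalization and with the NewN glands alone. In the germinal centre list 1 of 3 was higher (33.3%, beside 7.05% over all genes). This was Cxcl13, a call lost without any 1 of NewN2, NewN6, NewN7, NewN8 and X27.1N. The 2 genes of immature lymphocytes held 1 that was lower (Cd1d1), a call lost without any 1 of NewN1, NewN6, NewN8 and X27.1N. The genes Ms4a1, Cd79a, Cr2, Ighm, Foxp3, Ccr7, Ccl19 and Ccl21 were not among the named probe sets analysed here.

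Genes shared by most leukocytes gave the highest median. Of 35 measured, 28 were higher (80.0%, beside 7.05% over all genes) and 0 lower, with a median difference of 1.76. Without NewN6 25 were higher. Ptprc (CD45, the leukocyte phosphatase) read 762, 1451 and 840 against 85.6 to 222, a difference of 2.78 (SE 0.27). Rac2, a small GTPase of blood cells, read 1596, 2575 and 1918 against 139 to 219. Coro1a, an actin regulator, read 2375, 3213 and 2051 against 168 to 286. The 2 sets did not overlap for any of these 3 genes. Il2rg, the receptor chain shared by IL-2, IL-7 and other cytokines, differed by 3.18 (SE 0.17). The summed signal of the list was 27744 to 43172 in the rich and 8230 to 9861 in the poor glands. In bulk tissue more cells of a type and more RNA per cell cannot be told apart.

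Chemokines and receptors that place lymphocytes in tissue were higher in part, 9 of 20 measured and 0 lower, with 5 higher without NewN6. Cxcl13, which draws B cells into follicles, read 1101, 1494 and 1748 against 160 to 950 (median 426), and its call was lost as given above. Ccl17, which draws T cells, read 191, 302 and 335 against 19.6 to 75.7, a difference of 2.49 (SE 0.22). With 4 of the 8 poor glands at the floor, that size depends on it, and with the floor at the 25th percentile it was 1.71. These 2 were both highest in X27.1N. Cxcr4, the receptor for Cxcl12, differed by 0.66 (SE 0.12), and Cxcl12 itself, at 1686, 1790 and 1639 against 1350 to 2673, was not called.

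MHC class II presents peptides on B cells, macrophages and dendritic cells. In its list 9 of 13 measured genes were higher (69.2%, beside 7.05% over all genes), with a median of 1.20. Ciita, the factor that switches class II genes on, read 260, 341 and 225 against 70.0 to 117. Cd83, a marker of activated B and dendritic cells, differed by 2.02 (SE 0.16). RT1-Bb, a class II chain, differed by 1.59 (SE 0.21), though its other probe set was at the floor. RT1-Da, at 4363, 4511 and 4031 against 1365 to 2820, differed by 0.96 (SE 0.20), and Cd74, the invariant chain, was apart without overlap but was not called. The RT1 genes are close paralogs that share sequence, so which of them was read is uncertain. For MHC class I 7 of 17 were higher (41.2%, beside 7.05%), median 0.54, and 4 without NewN6. These were Tap1, Tapbp, Psme2, RT1-N3 and the immunoproteasome subunits Psmb8, Psmb9 and Psmb10. B2m, the light chain of class I, read 6361, 6065 and 5653 against 6075 to 7443 and was not called. The difference between the 2 lists was not tested.

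**Figure D2:**
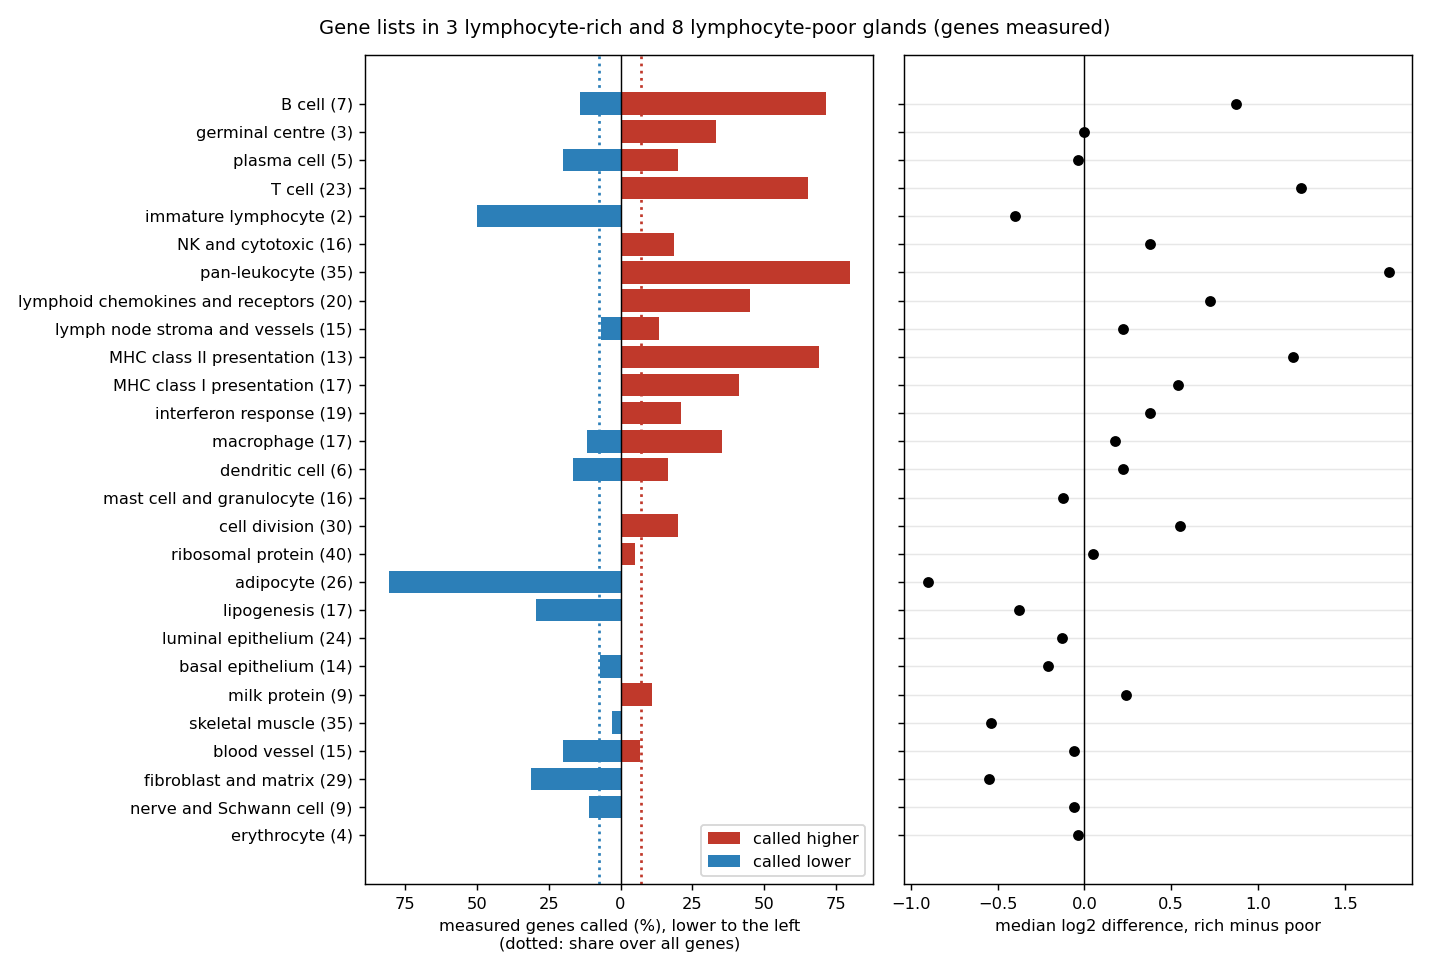
For 27 gene lists, with the number of measured genes in brackets, the left panel gives the percentage called higher (right of 0) and lower (left of 0) in the 3 rich against the 8 poor glands, with dotted lines at the shares over all genes (7.05% and 7.57%), and the right panel the median log2 difference. The pan-leukocyte list has the highest median, 1.76, and the adipocyte list the lowest, -0.90.

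Macrophage genes were called in both directions. Of 17 measured, 6 were higher (35.3%, beside 7.05% over all genes) and 2 lower (11.8%, beside 7.57%). The other 9 were not called, and the median was 0.18. The summed signal of the list was 16186 to 18411 in the rich and 10332 to 14713 in the poor glands. Csf1r, the growth factor receptor that defines the lineage, read 959, 1097 and 1023 against 858 to 1107. The complement gene C1qa read 1358, 1788 and 1674 against 1174 to 1836. For both, the rich glands lay within the spread of the poor ones. Lyz2 (lysozyme) was higher by 1.33 (SE 0.11), Fcgr2b, an inhibitory Fc receptor that B cells also carry, by 1.69 (SE 0.30) and Mpeg1, a pore-forming protein, by 1.37 (SE 0.20). Clec10a, a lectin, and Folr2, a folate receptor, both known from tissue-resident macrophages, were lower by 1.02 (SE 0.20) and 0.69 (SE 0.18). The call of Folr2 was lost without any 1 of NewN2, NewN4, NewN6, NewN7 and X27.1N. In the dendritic cell list 1 of 6 was higher (Cd83) and 1 lower (Cd1d1, whose call was lost as above). Each is 16.7%, beside 7.05% higher and 7.57% lower over all genes. Of 16 mast cell and granulocyte genes 0 were called in either direction.

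Fat genes were lower. In the adipocyte list 21 of 26 measured genes were called lower (80.8%, beside 7.57% over all genes) and 0 higher, with a median of -0.90. The summed signal was 29782 to 50991 in the rich and 63097 to 83392 in the poor glands. Pparg, the master factor of fat cells, read 471, 479 and 415 against 577 to 1824. Fabp4, which carries fatty acids in fat cells, read 3713, 2959 and 2291 against 4075 to 6273, a difference of -0.72 (SE 0.16). Cfd (adipsin), a secreted protease, read 5824, 4350 and 3784 against 7203 to 8730, a difference of -0.79 (SE 0.12). In each of these 3 the sets did not overlap. Lep (leptin) and Plin1, a coat protein of lipid droplets, had larger differences, -1.77 (SE 0.56) and -1.35 (SE 0.55), but overlapped and were not called. The list count rests on NewN6 and X27.1N, since 9 genes were called lower without either one and 14 with the NewN glands alone. Among 17 lipogenesis genes 5 were lower (29.4%, beside 7.57%), such as Scd, a desaturase, by 0.53 (SE 0.14) and Pc, pyruvate carboxylase, by 0.75 (SE 0.11). Of the 17, 1 was called lower without NewN6, 2 without X27.1N and 3 without NewN4; the call of Scd was lost in all 3 cases and without NewN1, and that of Pc in none.

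Several of the 10 largest downward differences were of genes known from fat. The largest was that of Igf2, an insulin-like growth factor, at 156, 1 and 418 against 420 to 1095; this call rests on 1 of its 4 probe sets, whose differences ran from -2.19 to 0.09. Without NewN6, where it was at 1, the difference was -1.32 and was not called, and its call was also lost without any 1 of NewN2, NewN4, NewN7 and X28.1N. Aifm2, a quinone oxidoreductase also made in fat, read 87.6, 45.7 and 14.5 against 104 to 241. Plin4, a lipid droplet protein, differed by -1.37 (SE 0.26), Abcd2, a peroxisomal transporter, by -1.34 (SE 0.26), Tshr, the thyrotropin receptor, by -1.34 (SE 0.22) and Cidea, which joins lipid droplets, by -1.30 (SE 0.24). Mamdc2 (-1.37, SE 0.25), Fndc1 (-1.33, SE 0.32), Thbd (thrombomodulin of endothelium; -1.28, SE 0.26) and Fhl1 (-1.26, SE 0.29) complete the 10. The calls of Fndc1, Thbd and Fhl1 were lost without NewN6 or X27.1N, and that of Fndc1 also without NewN4. For Aifm2, Plin4 and Abcd2 X27.1N was the lowest gland.

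A minority of connective tissue genes, though a larger share than of all genes, was called lower. In the fibroblast and matrix list 9 of 29 were lower (31.0%, beside 7.57% over all genes) and 0 higher, median -0.55. Lower were 3 without NewN6, 2 without X27.1N and 13 with the NewN glands alone. The summed signal was 46785 to 53574 in the rich and 61270 to 110006 in the poor glands. Timp3, a metalloproteinase inhibitor, read 1761, 1754 and 1462 against 2633 to 3328. Ogn and Gsn, a small matrix proteoglycan and an actin-severing protein, both differed by -0.74 (SE 0.15 and 0.16). The collagen Col3a1 was not called, at 5327, 4909 and 6349 against 5754 to 9774. Of 15 blood vessel genes 3 were lower, a larger share than the 7.57% over all genes. Among them was Emcn, a sialomucin of capillaries and veins, by 0.90 (SE 0.15). The tight junction gene Cldn5 alone was higher, by 0.56 (SE 0.14). That is 6.67% of the list, beside 7.05% over all genes. Without NewN6 1 of the 15 was lower, and the call of Cldn5 was lost without any 1 of NewN6, NewN7 and X27.1N. Pmp22, a myelin protein, was the 1 of 9 nerve genes that was lower (11.1%, beside 7.57% over all genes).

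Few epithelial genes were called. Of 24 luminal genes 0 were called in either direction, and of 14 basal genes 1 was lower (Cav1, which fat and endothelium also make; not called without NewN6 or X27.1N). Krt8, a luminal keratin, read 1512, 689 and 1020 against 577 to 1464. NewN4 was above all 8 poor glands and the 2 others were inside their range. The signal of the luminal list varied among the poor glands themselves, where X28.1N and Young had medians of -1.03 and -0.76 against the poor mean. Skeletal muscle also varied widely among the poor glands. Its list had a median difference of -0.54, and whether it follows the division was not tested. Against the poor mean, that list ran from -0.85 (NewN1) to 1.22 (NewN2) in the poor glands, and every rich gland lay inside that range. Acta1, the actin of muscle, read 1541, 47.5 and 93.7 against 32.2 to 4427. Of 35 muscle genes 1 was called, Myh1, which was lower by 0.54 (SE 0.09). The 5 probe sets of Myh1 ranged from -0.54 to -0.16. None of the 4 erythrocyte genes was called. Of 40 ribosomal protein genes 2 were higher (5.0%, beside 7.05% over all genes), Rpl12 and Rpl27, by 0.24 and 0.23. Under quantile normalization 13 were higher, and 0 were without any 1 of NewN4, NewN6, X27.1N, NewN7 and NewN8. The 1 of 14 basal genes (7.14%) and 1 of 35 muscle genes (2.86%) were also below the 7.57% of all genes called lower.

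The 3 lymphocyte-rich glands differed among themselves. Of the 734 genes called higher, 584 were highest in NewN6, 134 in X27.1N and 16 in NewN4. The T cell list lay 1.88 above the poor mean in NewN6 (median over the list), 1.22 in X27.1N and 0.91 in NewN4. In 30 of 35 pan-leukocyte and 19 of 23 T cell genes NewN6 was above all 10 other glands. With 1 array for each gland, these differences have no replicate check.

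Interferon-induced genes belonged mostly to NewN6. For 17 of 19 measured genes of that list NewN6 was above all 10 other glands. The list lay 0.76 above the poor mean in NewN6, 0.11 in X27.1N and -0.03 in NewN4. The poor gland X28.1N, at 0.34, was above the latter 2. Such a lead of NewN6 was not particular to this list: it was also above all 10 other glands in 13 of 17 class I and 11 of 13 class II genes. The chemokine Cxcl9, which interferon gamma induces, read 1530 in NewN6 but 126 in NewN4 and 103 in X27.1N, against 99.7 to 191 in the poor glands. Cxcl10, a related chemokine, read 127, 665 and 249 against 107 to 239, and the factor Irf7 read 369, 1162 and 494 against 408 to 701. For Cxcl9 and Irf7 NewN6 alone was above the poor glands, and for Cxcl10 X27.1N was also just above them. Over the 2 sets 4 of 19 were called higher (21.1%, beside 7.05% over all genes). These were Irf8 (2.45, SE 0.19), a factor that B cells and myeloid cells make without interferon, Mx1 (2.46, SE 0.40), an antiviral GTPase, Bst2 (0.63, SE 0.16) and Ifi35. Without NewN6, without X27.1N or with the NewN glands alone 2 of them were called, Irf8 and Mx1. For Mx1 all 3 rich glands, at 473, 1462 and 495, were above the poor ones, which reached 250. Ubd, an interferon-induced ubiquitin-like protein also known from lymphoid tissue, read 363, 1362 and 455 against 48.6 to 88.9.

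Of the 3 rich glands, X27.1N had the highest signal of cell division genes. For 27 of 30 measured genes it was the highest of the 3 rich glands, and the list lay 0.92 above the poor mean there, 0.36 in NewN4 and 0.21 in NewN6. The poor gland titled Young lay 0.82 above it. Mki67, a protein of dividing cells, read 88.5, 83.1 and 226 in NewN4, NewN6 and X27.1N, and 50.2 to 271 in the poor glands, where Young was the highest. Of 30 genes 6 were called higher, among them the replication genes Mcm3 by 1.95 (SE 0.27) and Pcna by 0.59 (SE 0.13). Without NewN6, or without X27.1N, 1 was, and 4 without NewN4. Without Young 13 were.

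**Figure D3:**
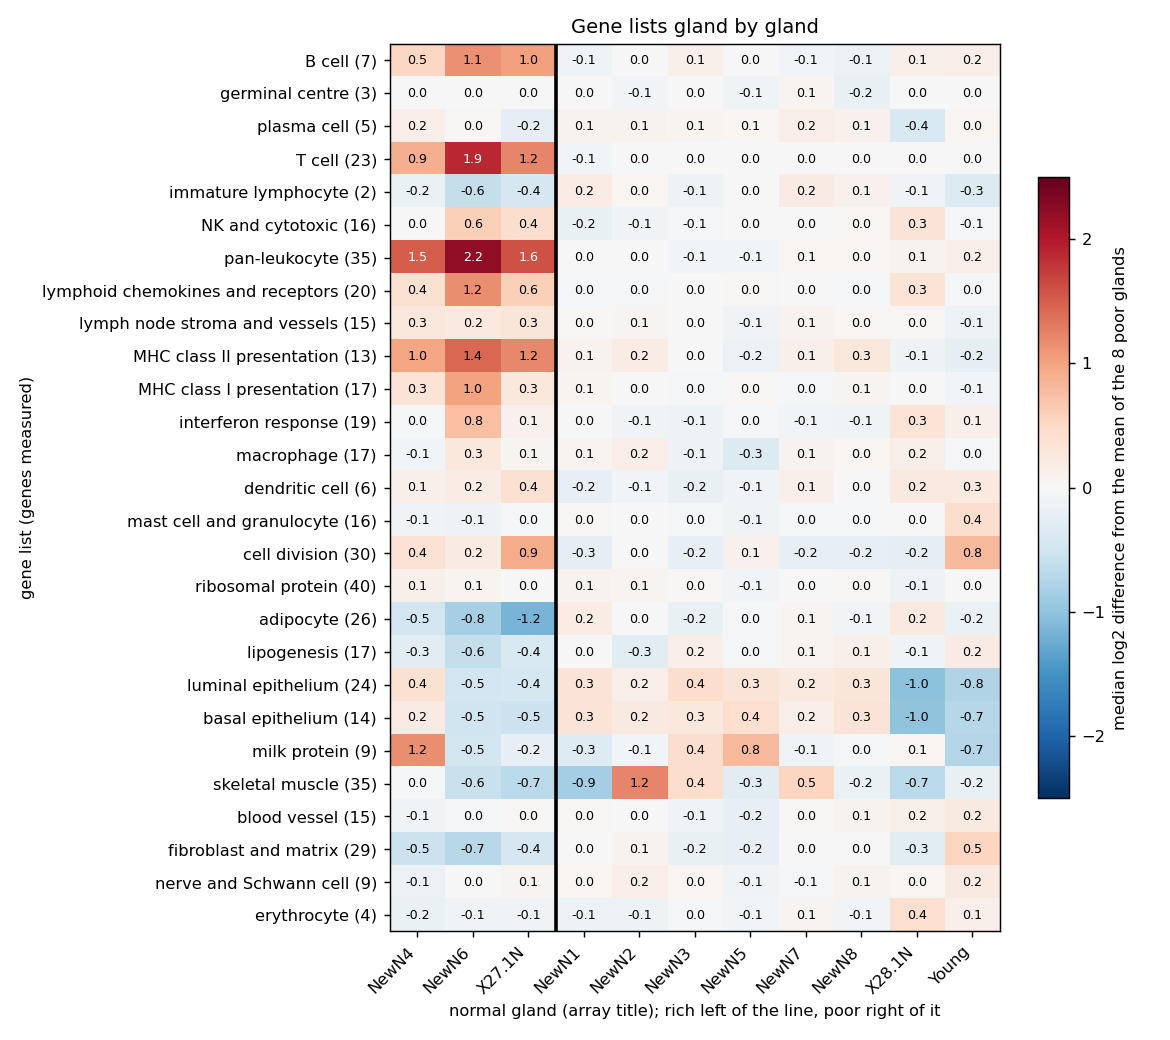
Each cell is the median over a gene list (rows, genes measured in brackets) of the log2 difference between 1 normal gland (columns) and the mean of the 8 lymphocyte-poor glands; the 3 rich glands are left of the line. The T cell and pan-leukocyte rows are high in all 3 rich glands. The interferon row is highest in NewN6 (0.76), followed by the poor gland X28.1N (0.34). The cell division row is high in X27.1N (0.92) and in the poor gland Young (0.82).

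Some of the larger differences were of genes better known from epithelium than from lymphocytes. They are named here after their values were seen. Slpi, a secreted protease inhibitor, read 1498, 1974 and 1353 against 191 to 564. Klk8, a kallikrein protease, read 970, 819 and 841 against 54.1 to 288, and Reg3g, an antibacterial lectin, read 318, 210 and 213 against 39.2 to 79.8. Klk8 and Reg3g were highest in NewN4, as Glycam1 was. Ctse (cathepsin E), which antigen-presenting cells also make, read 738, 1177 and 763 against 142 to 273. None of these 4 overlapped between the sets, but they were picked for their large differences. Over all genes 7.62% were higher without overlap.

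The 24 tumours took no part in the division and allow a test of which genes vary with the lymphocyte markers. The mean log2 signal of the 5 markers was 9.73 to 10.52 in the rich glands, 6.07 to 6.37 in the poor glands and 5.78 to 7.14 (median 6.0) in the tumours, so no tumour came near the rich glands. Cd79b was at the floor in all 24 and adds nothing to differences between tumours. With that mean as a continuous term in limma, and the 5 markers left out, 164 of 10406 genes rose with it at an adjusted p under 0.05 (1.58%) and 19 fell (0.183%). Without X22L, the tumour with the highest marker level, 80 rose and 2 fell. The titles X25L and X25R, and X29.1 and X29.2, share a number, and whether such tumours share an animal is not stated.

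Of the 729 other genes called higher in the lymphocyte-rich glands, 79 rose with the markers in tumours (10.8%, beside 1.58% over all genes), and 3 fell. These 79 were 48.2% of all genes that rose. Without X22L 50 did (6.86%, beside 0.769%). With Lck alone as the term 18 did (2.47%, beside 0.231%), and with Cd3d alone 3 did (0.412%, beside 0.0288%). Of the 788 genes called lower, 2 fell with the markers (0.254%, beside 0.183%) and 17 rose. Over all genes 1.58% rose, and whether 17 of 788 departs from that share was not tested. Among those 17, Cfd had a slope of 2.15, Pparg 0.72 and Fhl1 0.57 (adjusted limma p = 0.023, 0.0262 and 0.0198; 0.058, 0.335 and 0.125 without X22L). Cd3g had the smallest adjusted limma p of the named genes, with a slope of 1.64 log2 per log2 of the markers (SE 0.12, adjusted p = 1.7e-09, and 1.84 without X22L). Coro1a had a slope of 1.89 (SE 0.15, adjusted limma p = 7.54e-09), Ptprc 1.62 (SE 0.15, adjusted limma p = 9.57e-08) and Il2rg 1.56 (SE 0.16, adjusted limma p = 7.29e-07). Among the lists, 18 of 33 pan-leukocyte genes rose (12 without X22L, 6 with Lck alone), and all 18 were higher in the rich glands too. Of 21 T cell genes 2 rose, Cd3g and Il2rb, the IL-2 receptor beta chain. Of 6 B cell genes 0 rose (Cd79b left out), a list too short to tell apart from the 1.58% over all genes. Glycam1, at 53.9 to 579 in tumours, was not called.

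In tumours most macrophage genes rose with the mean of the markers. Of the 17, 14 rose, and 11 without X22L. The count depends on the marker. With Cd37 alone 14 rose (beside 4.1% over all genes) and with Ptprcap alone 15 (beside 2.9%). With Lck or Cd3d alone 0 did, where 0.231% and 0.0288% of all genes rose. These 2 terms therefore cannot show a lack of relation in a list of this size. C1qa had a slope of 1.47 (SE 0.22, adjusted limma p = 0.000147) and Csf1r of 0.97 (SE 0.14, adjusted limma p = 0.000165), though neither was called between the glands. Clec10a, which was lower in the rich glands, rose in tumours with a slope of 1.82 (SE 0.31, adjusted limma p = 0.000974), and Folr2, also lower, rose with 0.82 (SE 0.17, adjusted limma p = 0.0105; 0.158 without X22L). In the class II list 10 of 13 rose (5 with Lck alone, 0 with Cd3d alone), among them RT1-Bb with 1.51 (SE 0.20, adjusted limma p = 4.24e-05). Cxcl13 rose with 2.54 (SE 0.40, adjusted limma p = 0.000371) and reached 4771 in a tumour, above the 1748 of the highest gland. Cell division genes, 0 of 30, and class I genes, 0 of 17, were not called. Over all genes 1.58% rose, so lists of this size cannot show a lack of relation. The interferon list had 1 of 19, Irf8 with 0.78 (SE 0.10, adjusted limma p = 2.96e-05). Whether the relation in tumours differs from that between glands was not tested, since 1 is a slope and the other a difference between chosen glands.

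**Figure D4:**
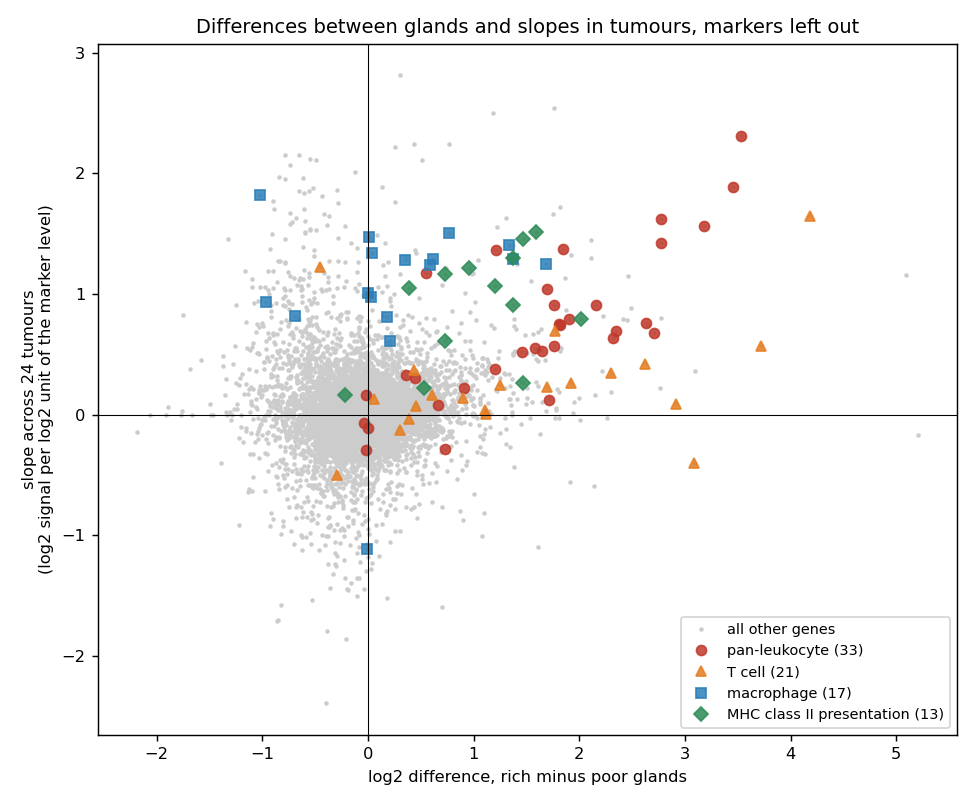
For each gene except the 5 markers, the log2 difference between rich and poor glands (horizontal) against the slope across the 24 tumours in log2 signal per log2 unit of the mean marker level (vertical); 4 gene lists are coloured and all other genes are grey. Pan-leukocyte genes lie to the upper right, while macrophage genes such as C1qa (slope 1.47) lie high near a difference of 0.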

How the data were processed

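The authors deposited 1 table of linear signal intensity, 15923 probe sets on 35 RAE230A arrays; scanner software, background correction and scaling were not given in the sources used here. After 57 control probe sets were left out, values below the 10th percentile (41.6) were set to it and log2 was taken. Of 15866 probe sets, 12783 had 1 gene symbol, 312 several and 2771 none in the platform annotation; each of 10411 genes was represented by its brightest probe set (by the mean of the 35 arrays). The gland model was fitted in limma 3.58.1 under R 4.3.3 (lmFit, eBayes with trend and robust estimation, no covariate), and tumours with the mean of the 5 markers as a term. Both fits were tested on simulated data. Array measures were compared with a two-sided exact permutation test over 165 regroupings. P-values measure only the spread between these samples, which may be technical, and the number of arrays limits the precision. The glands, the markers, the 27 lists (687 symbols, 456 measured) and the named genes were chosen with earlier results of these data known. The text names the 15 genes highest and 10 lowest by difference among those called without overlap, up to 3 members of each list by difference and 2 by level, and a panel; others are examples. Promoters are RefSeq, GRCr8. Alternatives varied scaling, floor, dim probe sets, spread model, array weights, title family, single glands, marker and probe set choice.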

Additional observations from a re-analysis of the deposited data

Results flagged for a closer look

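Some values stood apart from the other lymphocyte-poor glands, in that the gap to the nearest gland was large against the range of the 8. Of 128 named genes that vary among these glands, 14 had such a value. How many chance would give cannot be said, since the genes were chosen and low values were set to the floor. In the gland titled Young, Mki67 (271), Ube2c (404) and Pcna (972), all genes of dividing cells, were the highest of the 8, as were Col3a1 (9774) and Ogn (1485) of the matrix, S1pr2 (684) and Sele (133), and Ccl5 (174) was the lowest. In X28.1N, Esr1 (224) and Ccl17 (75.7) were the highest. In NewN3, Cd79b (42.9) was the 1 value above the floor, so its gap was made by the floor, with the next gland at 32.9 before it. Tcf7 (45.8) was the lowest there. Thrsp (4176) was lowest in NewN2 and Rpl12 (3243) in NewN5. None of the 132 genes named by the rule had a difference between rich and poor glands that varied with the title family by the interaction term in limma, although 42 of all 10411 genes did.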

How the results depend on the processing

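Of the 4 counts of genes, those between glands stayed within 1.5 times under other scalings, floors, a filter on dim probe sets, spread models, array weights and probe set rules and with the NewN glands alone (817 higher and 854 lower). The title family as a covariate gave 1153 and 1241. Leaving out each gland in turn gave 330 to 844 higher and 267 to 980 lower; both lowest counts were without NewN6. In tumours the counts of genes rising and falling were 3 and 0 with Cd3d alone (492 and 148 at an unadjusted limma p under 0.05), 427 and 132 with Cd37, 302 and 115 with Ptprcap, 24 and 2 with Lck, 80 and 2 without X22L, and 54 and 12 among the brighter probe sets; quantile normalization gave 58 falling. Cd79b alone could not be fitted, since it does not vary above the floor in tumours. The Actb difference was -0.187, with an exact p of 0.0714 and a difference of -0.224 among the NewN glands, the smallest p that 2 against 6 can give, and ranged from -0.223 to -0.152 with each gland left out. Of 86 named genes that were called, 56 kept their call under every alternative in which they were fitted, 28 lost it without NewN6 and 20 without X27.1N, and none changed sign. No paired analysis was possible because the titles of the normal glands share no replicate number between the sets. Signals under the floor carry no order, which limits genes such as Cd3d, Lef1 and Cd8a to bounds.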
